A study of Mus musculus with 6 samples.

Results

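Genes of zinc handling were followed in αTC1 cells, which were established from a mouse glucagonoma, a tumour of the pancreatic α cells that make glucagon. They are 10 of the 55487 genes of the deposited count table: the metallothionein genes Mt1, Mt2 and Mt3, the metal-responsive transcription factor gene Mtf1, the zinc exporter genes Slc30a1, Slc30a5, Slc30a7 and Slc30a8, and the zinc importer genes Slc39a10 and Slc39a14. They were chosen for their role in islet zinc handling and partly on the comparison described here, in which Mt1 was among the clearest increases. Their differences between the treatments are therefore given as a description. Where a member is said to be past the threshold of the fit across all genes, that restates in part how it was chosen and is no independent evidence.

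The study compared αTC1 cells treated with G786-1089, which the series describes as an inhibitor of the splicing factor SMNDC1, with cells treated with its solvent DMSO. Each treatment has 3 libraries, marked A, B and C in the columns. The labels give no dose and no duration. By the study's methods, cells of a shared batch were divided at random between the treatments within a replicate and handled together. The labels do not say whether the replicates are separate cultures, so p-values measure the spread between these libraries, which may be technical. Every library comes from 1 cell line, and the inhibitor and DMSO groups differ in the treatment alone as far as the labels say.

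Zinc in a cell is held at a very low free concentration. Metallothioneins are small cysteine-rich proteins that bind zinc and copper. When zinc or cadmium rises, the transcription factor MTF1 binds metal response elements upstream of metallothionein genes and of Slc30a1 and activates them. Slc30 proteins (ZnT) carry zinc out of the cytosol, across the plasma membrane or into vesicles, and Slc39 proteins (ZIP) carry it in. In islet cells ZnT8, the product of Slc30a8, loads zinc into hormone granules.

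Sequence upstream of Mt1, Mt2 and Slc30a1 is shown because these are the 3 members whose inhibitor libraries all lay above the DMSO libraries, and that of Mt3 because it lies beside Mt1 and Mt2 but was almost unread. Windows from RefSeq (GRCm38.p6) hold 250 bases before and 50 after a gene start, and were found for 8 of the 10 genes, not for Slc30a8 and Slc39a14. The core of the metal response element was searched on both strands as TGCACNC and TGCGCNC. The bases shown end before the RefSeq start or the first annotated exon, whichever comes first, so matches beyond that point are not shown. They are written 5′ to 3′ on the gene's strand, and capitals mark matches in either orientation.
Mt1, chr8:94178839-94179081, plus strand: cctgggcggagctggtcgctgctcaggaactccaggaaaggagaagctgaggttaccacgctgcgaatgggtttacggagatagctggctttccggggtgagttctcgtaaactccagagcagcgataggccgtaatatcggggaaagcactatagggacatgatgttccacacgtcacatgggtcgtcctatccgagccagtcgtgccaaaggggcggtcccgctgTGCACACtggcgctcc
Mt2, chr8:94172368-94172617, plus strand: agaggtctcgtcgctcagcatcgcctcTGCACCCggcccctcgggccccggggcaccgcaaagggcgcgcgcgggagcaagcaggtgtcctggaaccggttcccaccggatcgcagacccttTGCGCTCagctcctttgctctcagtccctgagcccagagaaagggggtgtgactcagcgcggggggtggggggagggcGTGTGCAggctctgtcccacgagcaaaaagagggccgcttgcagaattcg
Mt3, chr8:94152357-94152606, plus strand: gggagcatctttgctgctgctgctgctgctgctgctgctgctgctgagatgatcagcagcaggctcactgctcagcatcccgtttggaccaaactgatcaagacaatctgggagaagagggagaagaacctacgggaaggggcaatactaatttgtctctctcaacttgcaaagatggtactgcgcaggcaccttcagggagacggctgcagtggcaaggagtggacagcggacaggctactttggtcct
Slc30a1, chr1:191906531-191906766, plus strand: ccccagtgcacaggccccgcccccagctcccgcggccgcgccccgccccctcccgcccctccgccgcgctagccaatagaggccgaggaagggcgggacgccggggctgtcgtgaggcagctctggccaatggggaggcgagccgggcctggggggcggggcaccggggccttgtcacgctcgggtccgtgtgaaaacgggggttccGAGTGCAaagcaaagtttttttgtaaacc

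Over the whole windows of 300 bases, Mt2 held 4 matches, Mt1 held 3 and Slc30a1 held 2. Before the RefSeq start lay 3 matches of Mt2, 1 of Mt1 and 1 of Slc30a1, and their others lay after it. Mt3 and Slc30a5 held 1 each, and Mtf1, Slc30a7 and both windows of Slc39a10 held 0. Of all 32851 RefSeq windows of this length, 25.7% held at least 1 match, 7.11% at least 2, 1.97% at least 3 and 0.517% at least 4. Metallothionein genes and Slc30a1 were already known targets of MTF1, so nothing about these data is read from these shares. A match is a run of letters and not a shown binding site, and a window with 0 matches says only that these letters are not in it. Bases outside the windows, including those around any other start of a gene, were not searched, so the counts do not rank the genes.

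**Figure D1:**
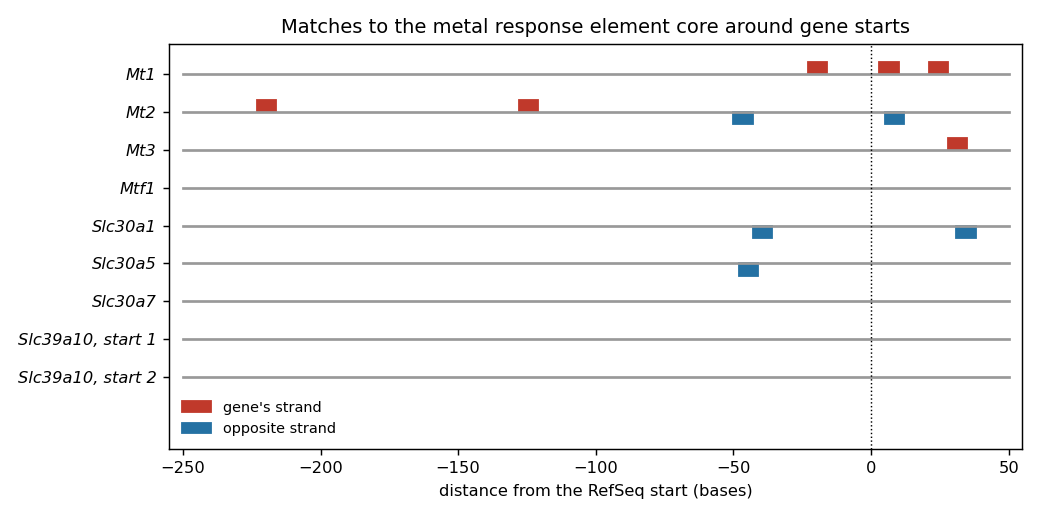
Position of each match to the metal response element core, in bases from the RefSeq start, for the 9 windows of the 8 genes found. Red boxes lie on the gene's strand and blue boxes on the opposite strand; Mt2 has 4 matches, Mt1 3 and Slc30a1 2.

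Of the 10 genes, 9 had enough counts to be tested in the fit across all genes (edgeR's quasi-likelihood test, at least 10 counts in enough libraries) and Mt3 did not. In that fit 2 members, Mt1 and Mt2, lay past an adjusted p of 0.05 in the direction of the inhibitor and 1, Slc30a8, in that of DMSO. In the background of 15082 tested genes, 6.98% were higher and 7.8% lower by the same rule, and since the members were chosen on this comparison nothing is read from the difference. The inhibitor and DMSO libraries did not overlap for 4 of the 9: Mt1, Mt2 and Slc30a1 lay higher and Slc30a8 lower, where 18.2% of tested genes lay wholly higher and 18.5% wholly lower. The median log2 fold change of the 9 was 0.10, against 0.04 for all tested genes. With libraries scaled by total count alone in place of TMM factors, which correct for composition, the median of all tested genes moved by 0.205 on the log2 scale. The calls over all genes then split into 1630 higher and 796 lower, in place of 1053 and 1177.

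**Figure D2:**
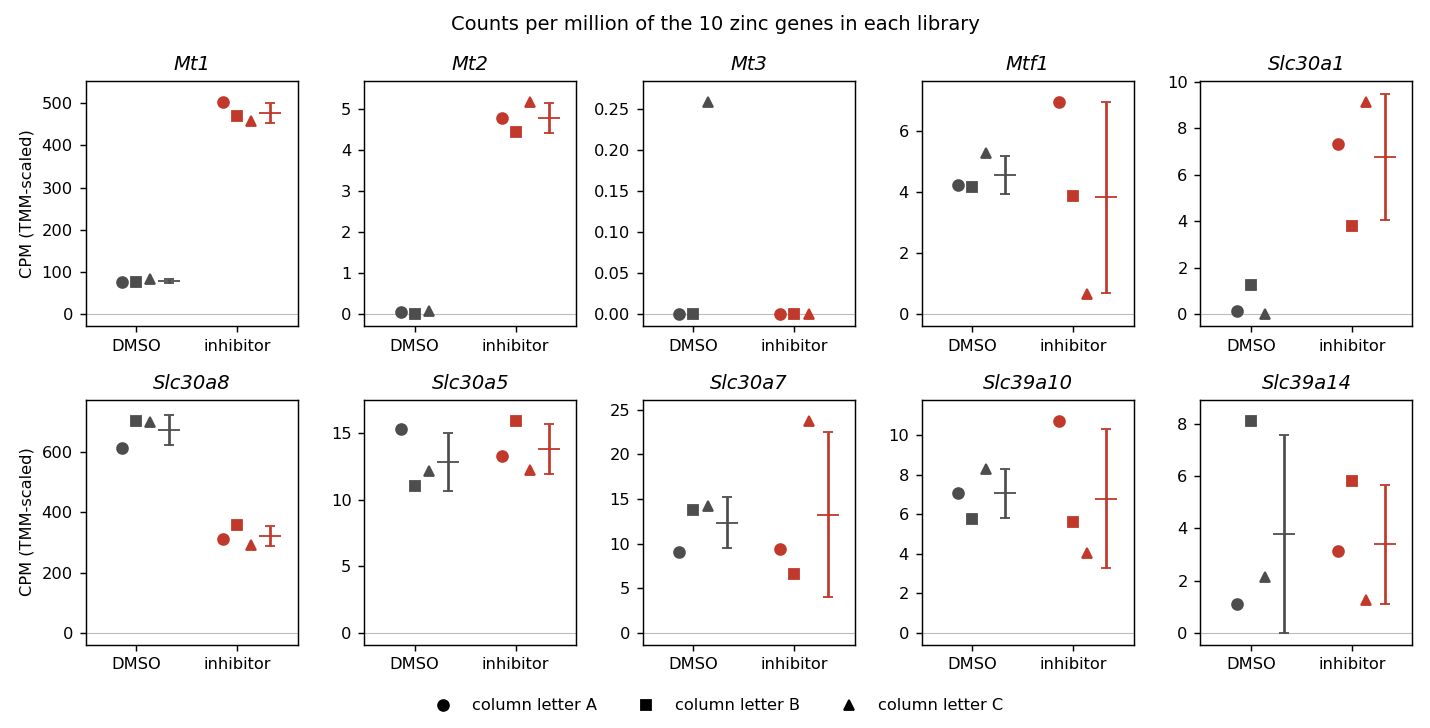
CPM (counts scaled to a common library total with TMM factors) of each of the 10 genes, 1 panel per gene with its own linear axis, 1 point per library and, where every library of a group had counts, the mean with its SD as a bar (n = 3 libraries). Mt1, Mt2 and Slc30a1 lie higher and Slc30a8 lower in all inhibitor libraries, and the other panels overlap.

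Mt1 was the metallothionein with nearly all of the metallothionein reads. It lies on chromosome 8 of GRCm38 from 94179082 to 94180327 on the plus strand (ENSMUSG00000031765), and its exons share no base with another gene. Its level was 75.8, 76.5 and 83.8 CPM (counts scaled to a common library total) in the DMSO libraries A, B and C, and 502, 469 and 458 CPM in the inhibitor libraries. Every inhibitor library lay far above every DMSO library, and the spread within each group was small. The means were 78.7 ± 4.41 and 477 ± 22.8 CPM (SD, n = 3 each), a log2 fold change of 2.60 (standard error 0.086).

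Mt2, the other widely expressed metallothionein gene, lies upstream of Mt1 on chromosome 8 from 94172664 to 94173568 on the same strand (ENSMUSG00000031762). It had 3, 0 and 4 counts in the DMSO libraries and 356, 443 and 447 counts in the inhibitor libraries. In CPM these are 0.0493, 0 and 0.0736 against 4.76, 4.42 and 5.15. The gene was thus next to unread in DMSO and read in every inhibitor library at a similar level. The ratio of the pooled CPM was 123, with an exact 95% interval of 59.3 to 305. The interval covers counting error only and takes counts as independent, which they are not, so it is too narrow even for that. The fitted log2 fold change was 6.83 (standard error 1.14). Because the DMSO counts are so few, the size of this change is known far less well than that of Mt1.

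The level of Mt2 is set in part by how reads were counted. Of its 588 exon bases, 73.47% are shared with exons of the antisense gene Gm45774, and 156 are not. The counting ignored strand and was run in a mode that leaves out reads overlapping 2 genes. In the table, of 201 genes whose exons lie wholly within those of other genes with at least 10 CPM, 199 had 0 counts in every library, or 99.0%, against 58.4% of 52852 genes with no such overlap. Exon lengths for this came from the basic transcripts of the GENCODE annotation, which match the deposited length scaling for 98.9% of 9796 genes. The comprehensive transcripts match for 2.1% and would have put 63.0% of such genes at 0. The level of Mt2, and its level relative to Mt1, are therefore understated in both groups, while its fold change compares the same bases.

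Relative to Mt1, Mt2 had 0.651, 0 and 0.879 counts per 1000 Mt1 counts in the DMSO libraries and 9.48, 9.42 and 11.2 in the inhibitor libraries. Per length, Mt1 made up at least 99.8% of the sum of both genes in each DMSO library and 97.7% to 98.0% with the inhibitor. The groups do not overlap in this share, although Mt1 held nearly all of it in both.

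Mt3, a metallothionein known mainly from brain, lies from 94152607 to 94154146 beside them. It had 14 counts in DMSO library C and 0 counts in the other 5 libraries. No change of Mt3 was detectable at this depth.

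Mtf1, the gene of the transcription factor that activates metallothionein genes, lies on chromosome 4 from 124802104 to 124849800 on the plus strand. Its level was 4.24, 4.17 and 5.28 CPM in DMSO and 6.94, 3.86 and 0.669 CPM with the inhibitor. The inhibitor libraries spread over a wide range on both sides of DMSO. The log2 fold change was −0.26 (standard error 0.77, 95% interval −2.10 to 1.59), an interval wide enough to hold a change of several-fold in either direction. Without inhibitor library C the log2 fold change was 0.24, and without inhibitor library A it was −1.01.

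Slc30a1 encodes ZnT1, the zinc exporter of the plasma membrane and a known target of MTF1. It lies on chromosome 1 from 191906767 to 191913247 on the plus strand, and 8.92% of its exon bases are shared with 1700034H15Rik. It had 8, 81 and 0 counts in the DMSO libraries and 549, 381 and 791 counts in the inhibitor libraries. In CPM these are 0.132, 1.25 and 0 against 7.34, 3.80 and 9.12. The groups do not overlap, but the gene did not pass edgeR's threshold, and DMSO library B stands above the other DMSO libraries. The ratio of pooled CPM was 13.3 (exact 95% counting interval 10.8 to 16.7, too narrow for the same reason), and the fitted log2 fold change was 3.87 with a standard error of 1.53. Without DMSO library B it was 6.62, again short of the threshold.

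Slc30a8 encodes ZnT8, which carries zinc into secretory granules. It lies on chromosome 15 from 52295553 to 52335798 on the plus strand (ENSMUSG00000022315), with 1 annotated transcript of 1971 bases. Its level was 614, 703 and 700 CPM in DMSO and 311, 356 and 292 CPM with the inhibitor. All inhibitor libraries lay below all DMSO libraries. The means were 673 ± 50.7 and 320 ± 32.9 CPM (SD, n = 3 each), a log2 fold change of −1.07 (standard error 0.10). In bulk samples fewer cells of a type and less RNA per cell cannot be told apart.

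Slc30a5 and Slc30a7 encode ZnT5 and ZnT7, which move zinc into the early secretory pathway. The level of Slc30a5 was 15.3, 11.1 and 12.2 CPM in DMSO and 13.3, 15.9 and 12.2 CPM with the inhibitor, with a log2 fold change of 0.11 (95% interval −0.50 to 0.71). For this gene the interval lies within a log2 fold change of 1 on either side. Stretches of 139 to 155 bases of its transcripts are 95.2% to 96.4% identical to parts of other genes' transcripts, so some of its reads may not be its own. Slc30a7 was at 9.04, 13.7 and 14.3 CPM in DMSO and 9.39, 6.61 and 23.8 CPM with the inhibitor, with a log2 fold change of 0.10 (95% interval −1.11 to 1.32). Its value rests on inhibitor library C, without which it was −0.62. Of its exon bases, 19.73% are shared with Gm43106 and Gm6649.

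Among the members, the zinc importer genes Slc39a10 and Slc39a14 overlapped between the groups. Slc39a10, which encodes ZIP10 of the plasma membrane, was at 7.10, 5.79 and 8.30 CPM in DMSO and 10.7, 5.59 and 4.06 CPM with the inhibitor. Its log2 fold change was −0.06 (95% interval −1.12 to 1.01), and 0.15 when libraries were scaled by total count alone. Slc39a14, which encodes ZIP14, a carrier of zinc, iron and manganese, was at 1.12, 8.13 and 2.13 CPM in DMSO and 3.13, 5.80 and 1.27 CPM with the inhibitor. In both groups library B was the highest. The log2 fold change was −0.16 (95% interval −2.27 to 1.96), and 1.06 without DMSO library B.

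Levels of different genes were compared per length, in the deposited FPKM (counts per kilobase, scaled between libraries). In DMSO Slc30a8 was the highest gene of the zinc transporter and metallothionein families, at 313 ± 23.7 FPKM, ahead of Slc39a11 at 74.1 ± 10.3 and Mt1 at 58.0 ± 3.37 (SD, n = 3). With the inhibitor Mt1 stood first at 351 ± 16.3 FPKM, ahead of Slc30a8 at 149 ± 16.2. The ranges of these neighbours did not overlap in either group. The ratio of Mt1 to Slc30a8 in FPKM was 0.195, 0.172 and 0.189 in the DMSO libraries and 2.56, 2.08 and 2.48 in the inhibitor libraries. Among all genes by mean FPKM, Mt1 went from place 1593 to place 237 and Slc30a8 from place 349 to place 613. The annotated exons of Mt1 cover its whole span of 1246 bases because its annotated transcripts together leave no intron, so its FPKM is lower than it would be per length of the spliced RNA.

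The other members stood far below. In DMSO, Slc30a5 was at 3.71 ± 0.638 FPKM, Slc30a7 at 1.26 ± 0.293, Slc39a10 at 1.18 ± 0.213, Slc39a14 at 0.669 ± 0.667 and Mtf1 at 0.526 ± 0.0728. Slc30a7 and Slc39a10 overlapped each other, as did Slc39a14 and Mtf1. Mt2 was at 7.45 ± 0.533 FPKM with the inhibitor, the eighth of the families, in a range that overlapped those of its neighbours Slc30a9 and Slc39a13. Since Mt2 was counted on 156 of the 588 bases by which its FPKM is divided, its place among the families may be higher.

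**Figure D3:**
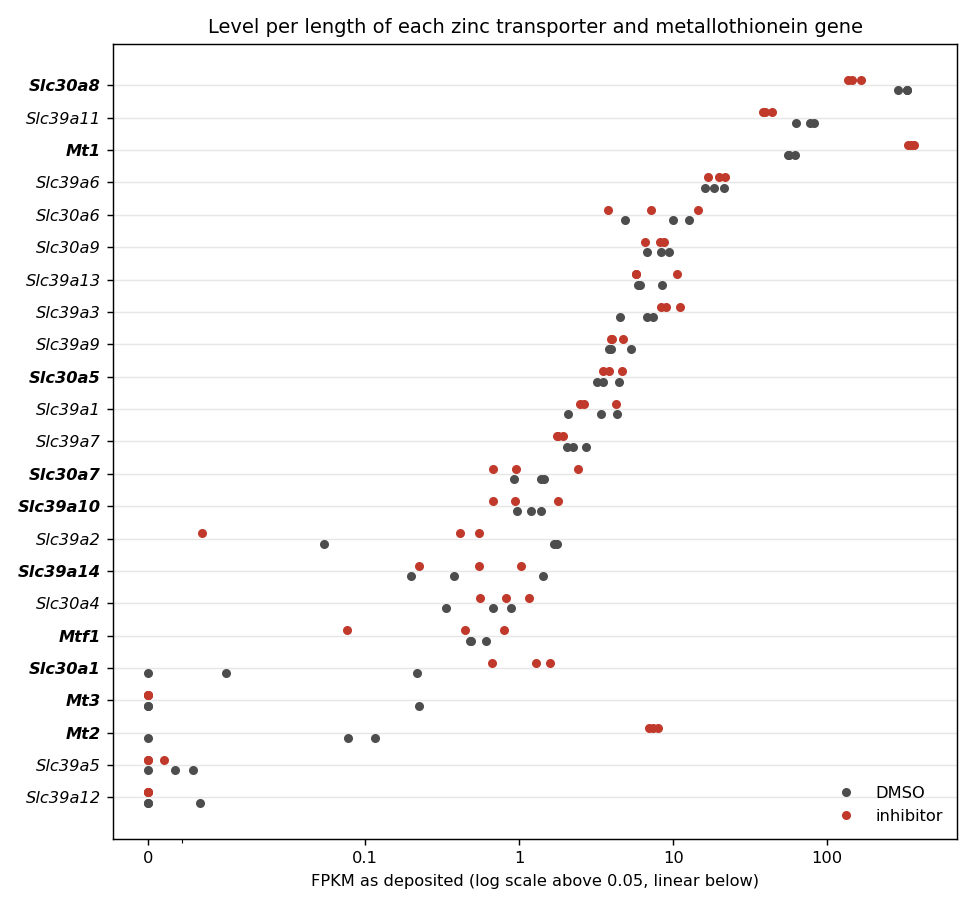
Deposited FPKM of every zinc transporter and metallothionein gene with at least 1 count, 1 point per library (grey DMSO, red inhibitor), ordered by the DMSO mean; the axis is logarithmic above 0.05 and linear below. The 10 genes described are in bold: Slc30a8 leads in DMSO at 313 FPKM and Mt1 leads with the inhibitor at 351 FPKM.

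The rest of the families gives the setting of these values. Of 19 other Slc30, Slc39 and metallothionein genes, 11 could be tested, 1 was lower and 0 were higher, with a median log2 fold change of −0.06. Over all tested genes, 6.98% were higher and 7.8% lower. The 1 lower gene of these 19 was Slc39a11, which encodes the importer ZIP11. It was at 226 ± 31.7 CPM in DMSO and 124 ± 9.78 CPM with the inhibitor (SD, n = 3; log2 fold change −0.87, standard error 0.13, edgeR adjusted p = 0.00721). Slc39a3 and Slc39a2 came next by p, with log2 fold changes of 0.61 and −1.82 and edgeR adjusted p of 0.152 and 0.491. Mt4, Slc30a2, Slc30a3, Slc30a10, Slc39a4 and Slc39a8 had 0 counts in all 6 libraries.

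Other genes that MTF1 or heavy metals are known to induce were followed as a list of 5. Of these, 2 were higher, 0 lower and 3 neither, with a median log2 fold change of 0.39. Over all tested genes, 6.98% were higher and 7.8% lower. The list was chosen with earlier results of these data known, so nothing is read from the difference. Hmox1, heme oxygenase 1, which breaks down heme and responds to oxidative and metal stress, was at 52.5, 50.8 and 53.5 CPM in DMSO and at 274, 263 and 209 CPM with the inhibitor. Its groups lay far apart (log2 fold change 2.25, standard error 0.13, edgeR adjusted p = 0.000241). Ndrg1, which responds to stress and to metals, was at 8.16 ± 2.71 and 27.9 ± 5.90 CPM (SD, n = 3 each; log2 fold change 1.77, edgeR adjusted p = 0.0148). Leaving out DMSO library C, inhibitor library B or inhibitor library C ended the call, with edgeR adjusted p of 0.0625, 0.0511 and 0.054, as did a block by column letter (0.0641). Csrp1, a zinc-binding LIM domain protein gene, was at 19.8 ± 4.11 and 12.2 ± 2.65 CPM and was not called (edgeR adjusted p = 0.159).

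Copper is also bound by metallothioneins. Of 11 copper handling genes, 9 were tested, 1 was higher and 1 lower, with a median log2 fold change of 0.26. The shares over all tested genes were 6.98% higher and 7.8% lower. This list too was chosen with earlier results known, and nothing is read from the difference. Sco1, which delivers copper to cytochrome c oxidase, was at 17.2 ± 8.55 CPM in DMSO and 50.2 ± 8.79 CPM with the inhibitor (SD, n = 3; log2 fold change 1.54, edgeR adjusted p = 0.0342). Its call was lost when any library but DMSO library A was left out, with edgeR adjusted p of 0.0591 to 0.11. Atox1, a copper chaperone, was at 137 ± 8.82 and 75.5 ± 4.68 CPM (log2 fold change −0.86, edgeR adjusted p = 0.00375). Sod1, the copper and zinc superoxide dismutase, had the next smallest p and was not called (log2 fold change −0.24, edgeR adjusted p = 0.151).

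Of 10 iron handling genes, 9 were tested, 2 were higher and 1 lower, with a median log2 fold change of 0.39. The shares over all tested genes were 6.98% higher and 7.8% lower. As this list was also chosen with earlier results known, nothing is read from the difference. Tfrc, the transferrin receptor through which cells take up iron, was at 24.1 ± 4.23 CPM in DMSO and 88.2 ± 24.3 CPM with the inhibitor (SD, n = 3; log2 fold change 1.87, edgeR adjusted p = 0.00458). The ferritin genes, whose products store iron, went in opposite directions. Fth1 fell from 1866 ± 55.5 to 1321 ± 9.36 CPM (log2 fold change −0.50, edgeR adjusted p = 0.00115) and Ftl1 rose from 1916 ± 50.6 to 2722 ± 87.3 CPM (log2 fold change 0.51, edgeR adjusted p = 0.00112).

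**Figure D4:**
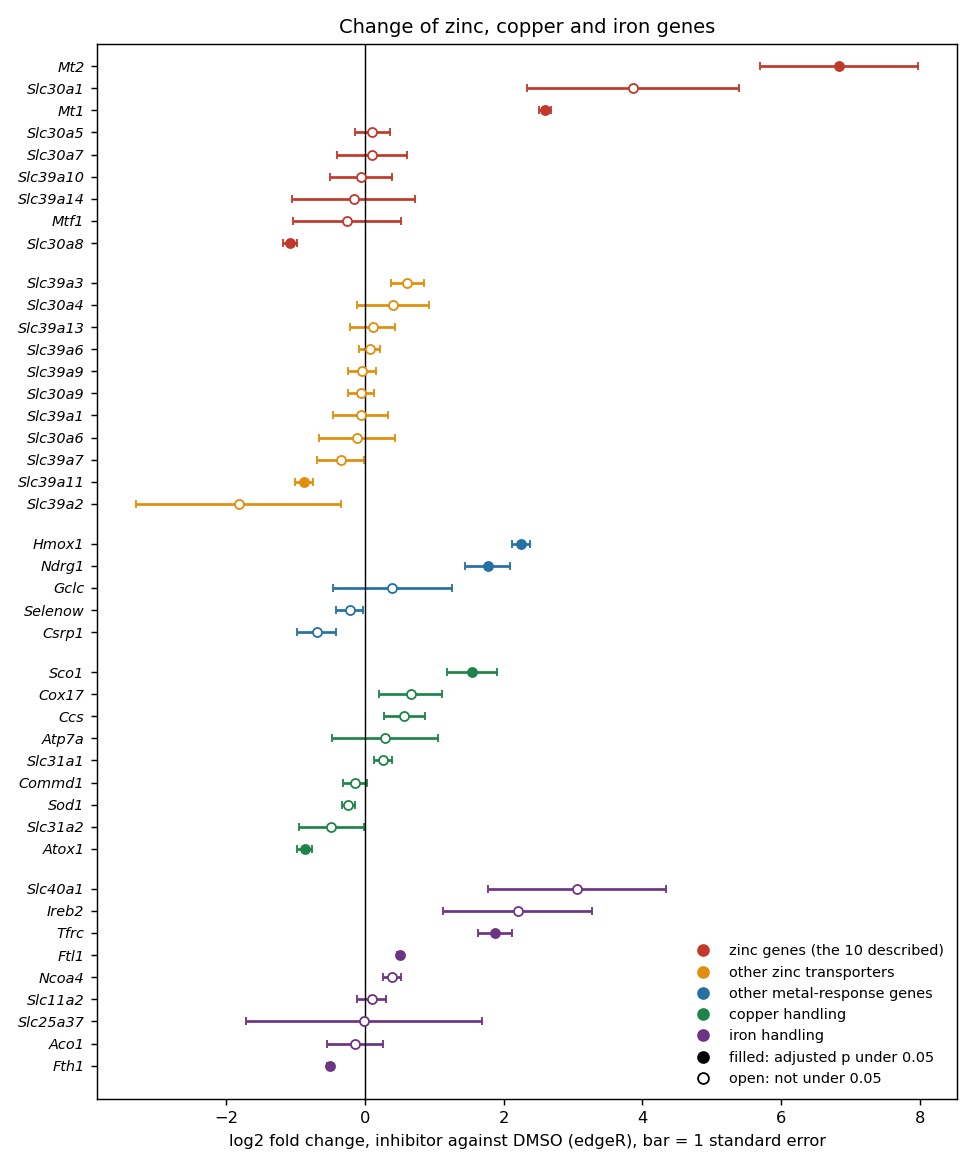
Log2 fold change of inhibitor against DMSO (edgeR) for the tested genes of the 5 lists, with 1 standard error as a bar; filled points have an adjusted p under 0.05 and open points do not. Mt2, Mt1 and Hmox1 lie at 6.83, 2.60 and 2.25, and Slc30a8 and Slc39a11 at −1.07 and −0.87.

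Genes around the metallothionein cluster were looked at because Mt1, Mt2, Mt3 and Mt4 lie side by side on chromosome 8. They were chosen by position, within 200 kb, after the data had been seen. Among the protein-coding neighbours, Gnao1, Nudt21, Ogfod1, Bbs2 and Nup93 had log2 fold changes of −0.81 to 0.21, and none was called (edgeR adjusted p from 0.0977 for Nup93 to 0.938 for Ogfod1). Gm45774, the gene antisense to Mt2, was at 0 CPM in all DMSO libraries and 0.287 ± 0.156 CPM with the inhibitor (SD, n = 3; edgeR adjusted p = 0.0235), and Gm45873 at 0 and 1.40 ± 0.611 CPM (edgeR adjusted p = 0.0105). The call of Gm45774 was lost with any library left out (edgeR adjusted p of 0.0758 to 0.1) and with a block by column letter (0.135), and that of Gm45873 with the block (0.0836). Reads in the exon bases shared by Mt2 and Gm45774 cannot be assigned to either gene without strand.

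Among the 7899 tested genes that reached an average log2 CPM of 3, those most like Mt1 across the 6 libraries were Pfkl, Gm10557 and 6820431F20Rik. Their root mean square differences in centred log2 CPM were 0.153, 0.159 and 0.167. Pfkl, a phosphofructokinase subunit of glycolysis, had means of 103 CPM in DMSO and 551 CPM with the inhibitor, and the others are annotated as pseudogenes. Most like Slc30a8 were Stmn3, the pseudogene Gm7931 and Gmpr, with differences of 0.0683, 0.0713 and 0.0723. Stmn3, a gene of a microtubule-regulating protein, went from a mean of 686 to 330 CPM.

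**Figure D5:**
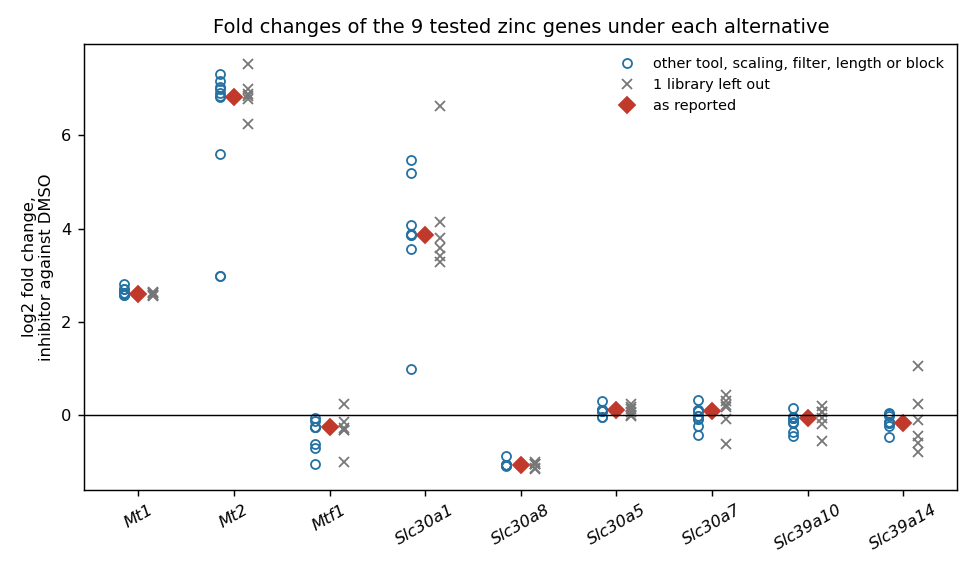
Log2 fold change of the 9 tested genes as reported (red diamonds), with another tool, scaling, filter, length correction or block (blue circles), and with 1 library left out (grey crosses). Mt1 and Slc30a8 keep to narrow ranges of 2.56 to 2.80 and −1.16 to −0.87, Mt2 and Slc30a1 stay above 0 with wide ranges, and the other 5 lie on both sides of 0 or close to it.

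The identity of the cells was read from marker genes. The α cell markers summed to 22620 to 25230 CPM in DMSO and to 4270 to 4966 CPM with the inhibitor. Gcg, the glucagon gene, went from a mean of 21190 to 3125 CPM and Pcsk2, which processes proglucagon, from 2007 to 1227 CPM. This shift moved in the same direction as Slc30a8, and its part in that result was not tested. The 5 β cell markers summed to 9.02 to 15.4 CPM in DMSO and 4.82 to 10.6 CPM with the inhibitor, with Ins1 and Pdx1 at 0. The delta and PP cell markers Sst, Hhex and Ppy were at 0 throughout. Of the acinar markers, Cpa1 and Ctrb1 were at 0 and Cela1 was at 9.01 to 21.5 and 27.3 to 44.4 CPM. The fibroblast, leukocyte and endothelial markers each summed to at most 1.13 CPM, with Col3a1, Dcn, Cd52 and Cdh5 at 0 in all libraries. Total counts ran from 59070705 to 69480568 in DMSO and from 70150880 to 94747943 with the inhibitor, so that each inhibitor library was deeper.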

How the data were processed

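RNA from αTC1 cells was sequenced after Smart-seq2 amplification, with paired reads and without strand. Per the labels and the study's methods, the authors aligned reads to GRCm38 with STAR 2.7.9a, counted alignments on annotated basic transcripts irrespective of strand, and deposited raw counts per gene. The authors also deposited FPKM; how these were made is not given in the sources used here, and counts and FPKM of a gene differed by 1 factor per library. Of counts from 1 to 10, 78.1% were even, so counts are not independent fragments. The exact intervals of the pooled CPM ratios of Mt2 and Slc30a1 cover counting error only. Those of log2 fold changes rest on the standard errors of the edgeR fit, which include the spread between libraries.

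Counts were tested in R 4.3.3 with edgeR 4.0.16 (filterByExpr with a minimum of 10 and a total of 15, TMM, quasi-likelihood test, Benjamini-Hochberg adjustment over 15082 genes, no covariate). The smallest p that an exact permutation test allows in this design is 0.1. Standard errors are the absolute log2 fold change over the square root of F. Tested on simulated data, edgeR made few false calls and missed most of the smaller changes and those of weakly expressed genes, so a gene that was not called may still have changed. DESeq2 recovered more and made many more false calls. Far fewer genes were changed in that simulation than were called here, and its counts were drawn with the spread that edgeR had estimated. The rates of missed and false calls therefore do not carry over to these data and do not rank edgeR against DESeq2. The members and the gene lists were chosen with earlier results of these data known. Genes named are all members and, in each other list, those with an adjusted p under 0.05 or, where fewer than 3, the 3 smallest p, with the 3 genes most like Mt1 and Slc30a8. Genes near the metallothionein cluster were chosen after seeing the data. Some genes of the marker list and of this neighbourhood are not reported here.

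Alternatives were DESeq2 1.42.0, other scalings and count filters, offsets for gene length, limma 3.58.1 on log2 FPKM, a replicate block by column letter and each library left out. No label ties a letter to a replicate number, and whether a letter marks libraries handled together is not stated. Deviations of same-letter columns from their group means were almost uncorrelated over all tested genes (correlations 0.0151, 0.0027 and 0.0251). Exons and overlaps came from the GENCODE vM21 basic annotation and near-identical transcripts from blastn 2.17.0.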

Additional observations from a re-analysis of the deposited data

How the results depend on the processing

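Over 17 alternatives the log2 fold change ran from 2.56 to 2.80 for Mt1 and from −1.16 to −0.87 for Slc30a8. Over the 16 in which Mt2 could be tested it ran from 2.99, on the FPKM scale with a pseudocount of 1, to 7.52. As the members were chosen on this comparison, these ranges describe the processing and do not support the changes. Slc30a1 was past the threshold in 2 of 14, DESeq2 and limma on log2 FPKM without a minimum, and its log2 fold change ran from 0.99 to 6.62. Mtf1, Slc30a5, Slc30a7, Slc39a10 and Slc39a14 were past it in 0 alternatives, and each took both signs. With at least 10 counts in every library Mt2 and Slc30a1 were no longer tested and 1 zinc gene was higher.

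Over all genes, DESeq2 called 1857 higher and 1810 lower, and library size scaling 1630 higher and 796 lower. An adjusted p of at most 0.1 with a log2 fold change of at least 1 in size, limits that the study set on genes with splicing events, left 943 higher and 628 lower when applied to edgeR. With the replicate block, which rests on letters whose pairing of the libraries is not known, 524 were higher and 708 lower, and with the block and length offsets 377 and 707. With 1 library left out, 545 to 613 were higher and 706 to 943 lower. Of the other metal-response genes, 1 was called with the block, 1 with block and length offsets and 1 to 2 with a library left out. Of the copper genes, 1 was called with block and length offsets and 1 to 2 with a library left out. The cause was not tested. Precision is limited by 3 libraries a group and, for Mt2, Mt3 and Slc30a1, by few DMSO counts.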

Other observations

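For Slc39a14 and Slc39a2, which encode zinc importers, the library at the extreme carried the same column letter in both groups. Slc39a14 had 68, 528 and 116 counts in DMSO libraries A, B and C and 234, 581 and 110 in the inhibitor libraries, with B the highest each time. Slc39a2 had 259, 9 and 241 counts in DMSO and 105, 4 and 92 with the inhibitor, with B the lowest each time. These genes were picked out after their values were seen, and how many genes show such a pattern was not counted. Deviations of same-letter columns were almost uncorrelated over all tested genes (correlations 0.0151, 0.0027 and 0.0251), but such a value cannot decide for single genes. No effect of the letter is read from these genes.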
